A study of Homo sapiens with 9 samples.

Results

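The genes examined here belong to the network of heat shock protein relatives, their co-chaperones and peptidyl-prolyl isomerases that folds proteins in the cytosol, the endoplasmic reticulum and the mitochondria. They were chosen by symbol, as every named gene of the DNAJA, DNAJB, DNAJC, HSPA to HSPE, HSP90, CCT, BAG and FKBP families, and 5 strongly inducible heat shock genes (HSPA1A, HSPA1B, HSPH1, HSPA4L and HSPB1) were left out. The rule found 24 genes among the 14884 that the platform annotation used here names. These were 9 genes of the HSPA (HSP70) family, 5 of the BAG family, 3 of the small heat shock family HSPB, HSPBAP1, the mitochondrial chaperonin HSPD1, 3 FKBP genes and 2 antisense transcripts of DNAJC genes. No protein-coding DNAJ, HSP90 or CCT gene is among them, so of the chaperonins HSPD1 alone was measured under a name. The set is called here the HSP70 and BAG genes and their relatives, after its largest families. Of the 24, 19 are protein-coding, 3 are long non-coding RNAs and 2 are transcribed pseudogenes.

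The cells were THP-1, a line from a human monocytic leukaemia, made macrophage-like (M0) with the phorbol ester PMA. The groups were M0 cells given 100 nM osimertinib, an inhibitor of the epidermal growth factor receptor kinase, M0 cells given 0.5 µM cisplatin, a platinum compound that crosslinks DNA, and M0 cells given vehicle, each for 16 h. Each group had 3 replicates that the labels call biological, each on its own Affymetrix Human Gene 2.0 ST array, and all 9 arrays come from the 1 cell line and carry the PMA exposure. The submitters' values were read as log2, with array medians of 3.29 to 3.37. Precision is limited by the number of arrays. Of 14 macrophage and myeloid markers, 8 were named and 7 lay above the level limit defined with the results, led by CD68 at 9.71. The lowest of the 7 was CD14, at 4.40 with osimertinib, 4.28 with cisplatin and 4.22 with vehicle. LYZ lay below the limit, at 3.31, 3.34 and 3.12. The mean of the 8 was 7.06 to 7.21 with osimertinib, 7.06 to 7.22 with cisplatin and 6.92 to 7.02 with vehicle. Its part in the results was not tested. The 4 named epithelial and 2 named fibroblast markers lay below the limit. Of the markers of lymphocytes and endothelium, CD8A (4.47), PAX5 (4.49) and PECAM1 (6.01) lay above it. In such bulk RNA, fewer cells of a kind and less RNA per cell cannot be told apart.

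HSP70 chaperones bind exposed hydrophobic stretches of unfolded proteins and let go of them in a cycle driven by ATP. J-domain proteins (DNAJ) start that cycle by stimulating ATP hydrolysis, and nucleotide exchange factors, among them the BAG proteins and the HSP110 relatives such as HSPA4, end it by releasing ADP. Small heat shock proteins hold unfolded clients without ATP, chaperonins enclose them in a barrel, and FKBP immunophilins turn peptide bonds before proline and bind drugs such as FK506. When unfolded proteins accumulate, the transcription factor HSF1 binds heat shock elements, inverted repeats of the letters GAA, in the promoters of many of these genes.

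A level limit was set at 4.28, the median of the mean log2 levels of all named genes, and 13 of the 24 genes reached it. The highest of these was HSPA9, with a mean of 9.51, and the lowest FKBP5, at 4.28. HSPA12A (4.36) lay just inside the limit, and HSPA12B (4.08) and the pseudogene FKBP9P1 (3.93) just outside it. Tests were made with limma over all 7442 genes above the limit, with Benjamini-Hochberg adjustment and a threshold of 0.05. With osimertinib 5 of the 13 genes rose, where 16.9% of all tested genes rose, and 0 fell, where 13.7% fell. With cisplatin 4 of the 13 rose, against 16.5% of all tested genes, and 0 fell, against 14.5%. The 4 genes that rose with cisplatin, HSPA1L, HSPA4, BAG3 and HSPA9, also rose with osimertinib, and BAG2 was the fifth there. Both comparisons use the same vehicle arrays. At an unadjusted p under 0.05, 6 genes differed with osimertinib and 5 with cisplatin, where 40.4% and 40.7% of all tested genes did. The 3 osimertinib arrays lay wholly above the vehicle arrays in 6 of the 13 genes and wholly below in 0, which held for 24.6% and 19.5% of all tested genes. The cisplatin arrays lay wholly above in 6 (22.5%) and below in 1 (19.8%). The median log2 difference of the 13 was 0.19 with osimertinib and 0.15 with cisplatin, beside medians of 0.037 and 0.032 over all tested genes. Without the limit, when all 24 genes were tested among 14884, the counts were again 5 and 4 higher and 0 lower, beside 7.77% and 7.41% of all genes higher and 6.99% and 7.28% lower.

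**Figure D1:**
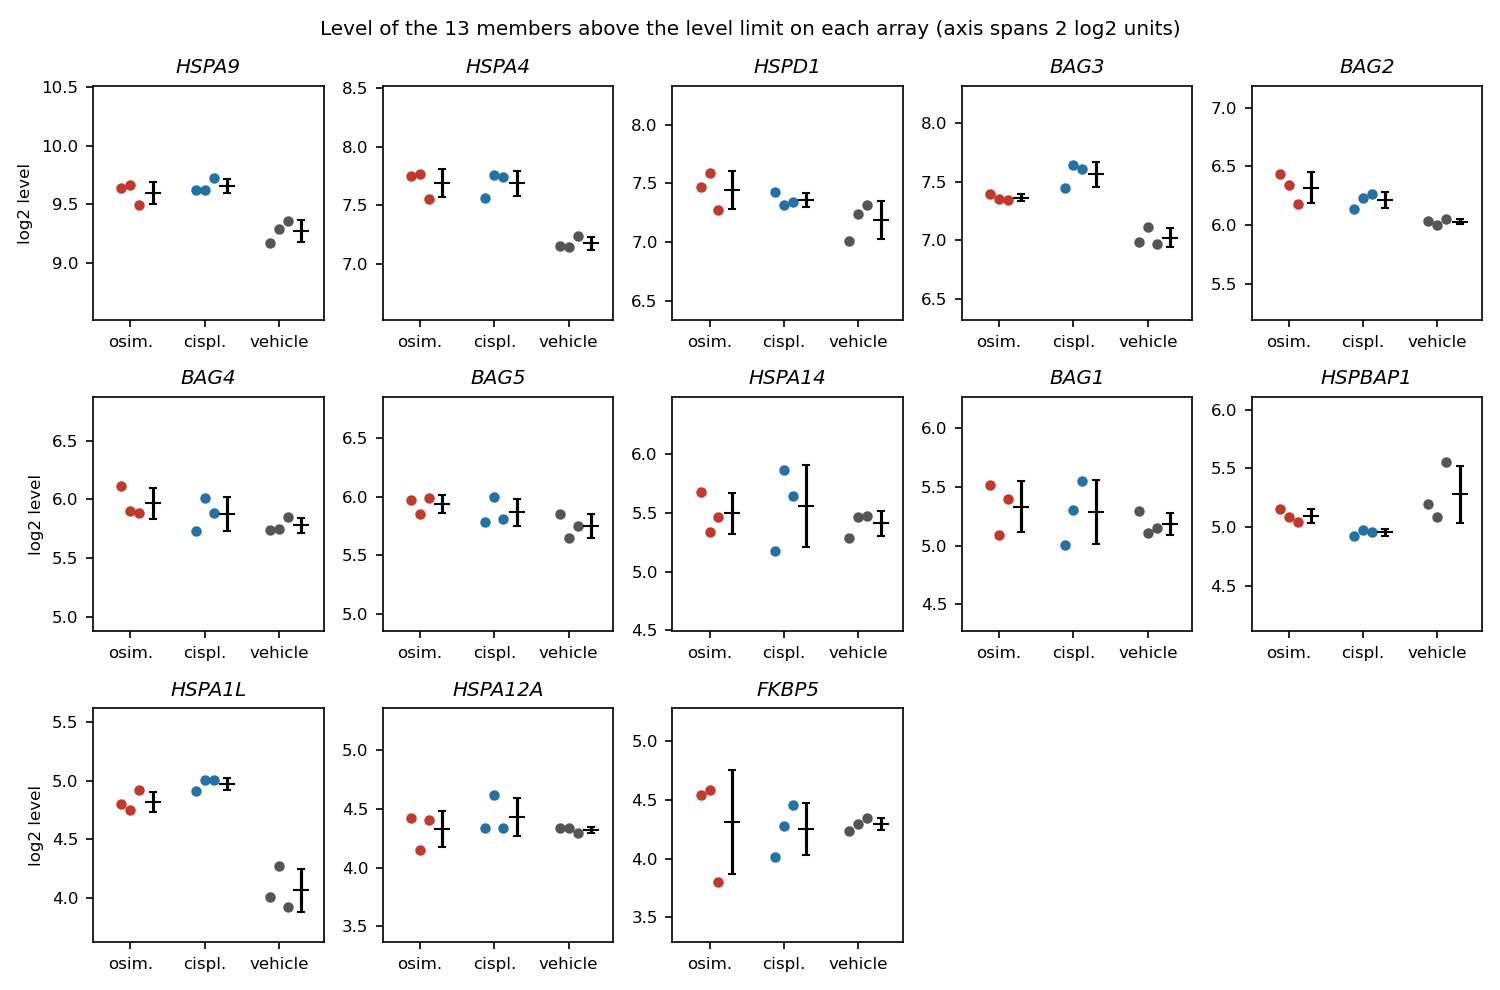
Log2 level of each of the 13 genes above the level limit on each array, with osimertinib (red), cisplatin (blue) and vehicle (grey) from left to right; points are arrays and the black bars are the mean and SD of 3. The treated arrays of HSPA1L, HSPA4, HSPA9 and BAG3 all lie above the vehicle arrays, while those of BAG1, HSPA14 and FKBP5 overlap them.

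Of the HSP70 family, HSPA1L, HSPA4 and HSPA9 rose with both drugs. HSPA1L encodes an HSP70 that is best known from testis, and its gene lies head to head with that of the inducible HSP70 HSPA1A. HSPA1L (Entrez gene 3305) had log2 levels of 4.80, 4.75 and 4.92 with osimertinib, 4.91, 5.00 and 5.00 with cisplatin, and 4.01, 4.27 and 3.92 with vehicle. All 6 treated arrays lay above the 3 vehicle arrays, and all 3 vehicle values lay below the level limit, so that the gene passed the limit only through its treated arrays. The difference was 0.75 with osimertinib (1.69-fold, SE 0.115, adjusted p = 0.000255) and 0.91 with cisplatin (1.88-fold, SE 0.115, adjusted p = 6.25e-05), the highest among the 13 genes under each drug. With all genes tested, whatever their level, the adjusted p was 0.00079 and 0.000231. The array has 5 rows for HSPA1L, of which 3 hold distinct values, and their differences ran from 0.62 to 0.75 with osimertinib and from 0.75 to 0.91 with cisplatin. HSPA1A, whose messenger is close to that of HSPA1L in sequence, rose by 1.32 (SE 0.072) and 1.26 (SE 0.072), and whether the HSPA1L probes also catch HSPA1A transcripts was not tested.

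HSPA4 is an HSP110 relative that releases ADP from HSP70. HSPA4 (Entrez gene 3308) had levels of 7.75, 7.76 and 7.56 with osimertinib, 7.56, 7.76 and 7.74 with cisplatin, and 7.15, 7.14 and 7.24 with vehicle. The groups given drug overlapped each other and not the vehicle group. The difference was 0.51 with osimertinib (1.43-fold, SE 0.079, adjusted p = 0.000282) and 0.51 with cisplatin (1.42-fold, SE 0.079, adjusted p = 0.000302). Its close relative HSPA4L, which is outside the set, rose by 1.66 with osimertinib (SE 0.16) and had a difference of 0.25 with cisplatin (adjusted p = 0.279), and it was 1.41 higher with osimertinib than with cisplatin (adjusted p = 0.000477). For HSPA4 the difference between the drugs was 0.003, with a 95% interval from -0.17 to 0.17.

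HSPA9, or mortalin, is the HSP70 of the mitochondrial matrix, where it pulls in and folds imported proteins. HSPA9 (Entrez gene 3313) had levels of 9.64, 9.66 and 9.49 with osimertinib, 9.63, 9.62 and 9.73 with cisplatin, and 9.17, 9.29 and 9.36 with vehicle. The vehicle arrays again lay below all 6 treated arrays. It was 1.25-fold higher with osimertinib (log2 difference 0.33, SE 0.061, adjusted p = 0.00113) and 1.31-fold higher with cisplatin (0.39, SE 0.061, adjusted p = 0.000319).

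The other named HSP70 relatives were not called. Of the 11 protein-coding HSPA genes of RefSeq that match the rule, 8 were named. HSPA5 and HSPA8 were not among these, so nothing is known here of their levels. HSPA14, which acts with a J-domain partner on chains leaving the ribosome, had differences of 0.085 with osimertinib and 0.15 with cisplatin (adjusted p = 0.718 and 0.495). Its cisplatin arrays spread from 5.18 to 5.86, more than its osimertinib arrays (5.34 to 5.68) and its vehicle arrays (5.29 to 5.48). HSPA12A, a distant relative, had 0.0067 and 0.11 (adjusted p = 0.974 and 0.512). HSPA2, a testis HSP70 whose mean of 3.84 lay below the limit, had levels of 4.03, 4.28 and 3.91 with osimertinib, 3.85, 3.90 and 4.10 with cisplatin and 3.02, 3.59 and 3.91 with vehicle. Its groups overlapped through vehicle replicate 3, and its differences of 0.56 and 0.44 did not pass the test made over all named genes (adjusted p = 0.0800 and 0.173). HSPA6, an HSP70 known to be almost silent until cells are heated, had means of 3.40 with osimertinib, 3.73 with cisplatin and 3.50 with vehicle. HSPA12B, best known from endothelium, also lay below the limit; its cisplatin arrays (4.07 to 4.26) stood above its vehicle arrays (3.90 to 4.02), with a difference of 0.23 (adjusted p = 0.272 over all named genes). The pseudogene HSPA7 differed by 0.13 with osimertinib and 0.0059 with cisplatin.

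The BAG proteins share a domain that opens the nucleotide pocket of HSP70, and all 5 that were named lay above the limit. BAG3, which hands HSP70 clients to autophagy together with the small chaperone HSPB8, rose with both drugs, and BAG2, which restrains the ubiquitin ligase CHIP, rose with osimertinib. BAG3 (Entrez gene 9531) had levels of 7.40, 7.35 and 7.34 with osimertinib, 7.44, 7.65 and 7.61 with cisplatin, and 6.98, 7.12 and 6.97 with vehicle. The 3 groups did not overlap, and the cisplatin arrays were the highest. The difference was 0.34 with osimertinib (1.27-fold, SE 0.074, adjusted p = 0.00337) and 0.54 with cisplatin (1.46-fold, SE 0.074, adjusted p = 0.000116).

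BAG2 (Entrez gene 9532) had levels of 6.43, 6.34 and 6.18 with osimertinib, 6.13, 6.23 and 6.26 with cisplatin, and 6.03, 6.003 and 6.05 with vehicle. Its treated arrays all lay above the vehicle arrays, by 0.29 on average with osimertinib (1.22-fold, SE 0.089, adjusted p = 0.0251) and by 0.18 with cisplatin (adjusted p = 0.146). The osimertinib call ended when 1 array was left out, at an adjusted p of 0.0957 without osimertinib replicate 1, 0.0773 without osimertinib replicate 2, and 0.0583, 0.0729 and 0.0523 without vehicle replicates 1, 2 and 3. BAG2 was not shown to differ between the drugs (0.11, 95% interval -0.085 to 0.30).

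BAG1, BAG4 and BAG5 were not called. BAG4, which covers the death domain of the TNF receptor, had 6.12, 5.90 and 5.88 with osimertinib, 5.73, 6.01 and 5.88 with cisplatin and 5.74, 5.75 and 5.85 with vehicle, and its osimertinib arrays lay just above the vehicle arrays (0.19, adjusted p = 0.199). BAG5, which has several BAG domains, differed by 0.19 and 0.12 (adjusted p = 0.170 and 0.397), and BAG1, which binds BCL2 and links HSP70 to the proteasome, by 0.15 and 0.10 (adjusted p = 0.478 and 0.641). After quantile normalization on top of the submitters' values, the median difference over all tested genes was 0.11 with each drug, where it was 0.037 with osimertinib and 0.032 with cisplatin without that step, and under it BAG4 and BAG5 passed with osimertinib (adjusted p = 0.0217 and 0.0244) and BAG2 with cisplatin (0.0101).

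HSPD1, the chaperonin HSP60 that encloses folding proteins in the mitochondrial matrix, did not pass with either drug. HSPD1 (Entrez gene 3329) had levels of 7.47, 7.59 and 7.28 with osimertinib, 7.42, 7.31 and 7.34 with cisplatin, and 7.01, 7.24 and 7.32 with vehicle. The groups overlapped through vehicle replicate 3. The difference was 0.26 with osimertinib (SE 0.095, adjusted p = 0.0561) and 0.17 with cisplatin (adjusted p = 0.195). Without vehicle replicate 1, its lowest array, the osimertinib difference was 0.17 (adjusted p = 0.231). It passed without osimertinib replicate 3 (0.34, adjusted p = 0.0205), without vehicle replicate 3 (0.32, adjusted p = 0.0402), after further quantile normalization (0.29, adjusted p = 0.0282) and when the test was kept to genes in the upper quartile of level (adjusted p = 0.0332).

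HSPBAP1, a protein that binds the small heat shock protein HSPB1, was the one gene above the limit whose mean was lower with both drugs. Its levels were 5.16, 5.09 and 5.04 with osimertinib, 4.92, 4.98 and 4.96 with cisplatin, and 5.20, 5.09 and 5.55 with vehicle. The cisplatin arrays lay below the vehicle arrays, whose spread came from replicate 3. The difference with cisplatin was -0.33 (SE 0.12, adjusted p = 0.0548), and with osimertinib -0.18 (adjusted p = 0.275). Without vehicle replicate 3, its highest array, the cisplatin difference was -0.19 (adjusted p = 0.230). It passed without vehicle replicate 2 (-0.42, adjusted p = 0.0265), with each array centred on its median (-0.35, adjusted p = 0.0335) and without variance trend and robust fitting (adjusted p = 0.0479).

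FKBP5 encodes an immunophilin that holds back the glucocorticoid receptor on HSP90 and is itself induced by glucocorticoids. It had levels of 4.54, 4.58 and 3.80 with osimertinib, 4.02, 4.28 and 4.46 with cisplatin and 4.24, 4.30 and 4.34 with vehicle. The treated arrays lay on both sides of the vehicle arrays, with differences of 0.016 and -0.042 (SE 0.19, adjusted p = 0.960 and 0.891). The small heat shock genes HSPB3 and HSPB8, the readthrough transcript HSPB2-C11orf52, the endoplasmic reticulum isomerase FKBP7, the pseudogene FKBP9P1 and the antisense RNAs DNAJC27-AS1 and DNAJC9-AS1 lay below the limit. Over the 11 genes below it, means ran from 2.03 to 4.08, and differences from -0.36 to 0.56 with osimertinib and from -0.095 to 0.44 with cisplatin. When all named genes were tested 0 of these 11 passed in either comparison, the lowest adjusted p being that of HSPA2. The partner of BAG3, HSPB8, had means of 2.28 with osimertinib, 2.06 with cisplatin and 2.16 with vehicle.

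**Figure D2:**
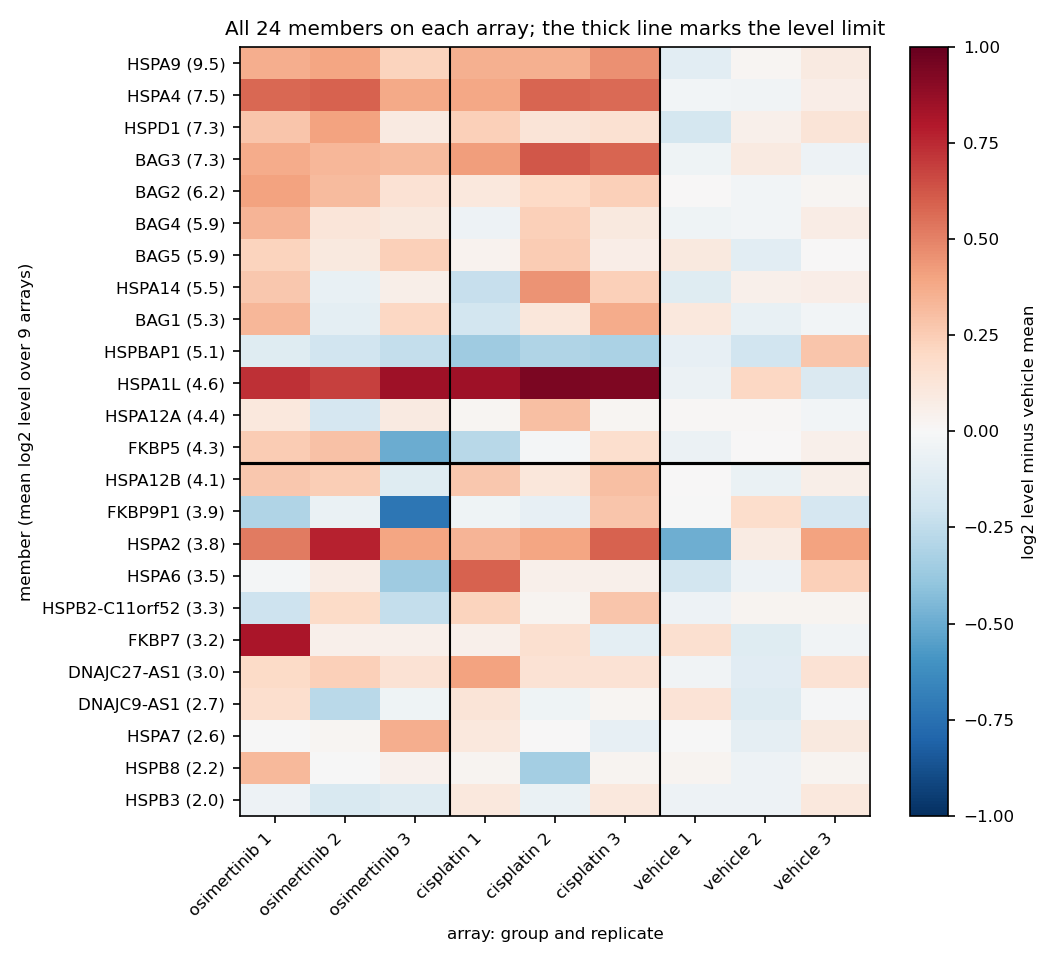
Log2 level minus the vehicle mean (colour scale) for all 24 genes in rows, ordered by mean level (in brackets), on the 9 arrays in columns, with osimertinib left, cisplatin in the middle and vehicle right. HSPA1L is dark red on all 6 treated arrays, and below the thick line, which marks the level limit, the columns of a group differ among themselves, as in HSPA2 and FKBP7.

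Osimertinib and cisplatin were compared directly to see whether any of these genes told the drugs apart. Of the 13 genes 0 were higher and 0 lower with osimertinib by limma, where 0.766% and 0.981% of all tested genes were, and 1 had an unadjusted p under 0.05, where 11.7% of all tested genes did. That gene was BAG3, lower with osimertinib than with cisplatin by 0.20 (log2 difference -0.20, 95% interval -0.36 to -0.041, adjusted p = 0.266). The osimertinib arrays lay wholly below the cisplatin arrays in BAG3 and wholly above them in HSPBAP1 (5.04 to 5.16 against 4.92 to 4.98), 1 gene each way, as did 6.88% and 7.44% of all tested genes. With all 24 genes tested the counts were again 0, beside 0.222% of all genes higher and 0.289% lower. HSPA1L differed by -0.15, with an interval from -0.40 to 0.095, in its brightest row, where the groups overlapped. In its other rows, some of which hold the same values, it differed by -0.14 and -0.13. There the osimertinib arrays lay wholly below the cisplatin arrays. HSPA9 differed by -0.063, from -0.19 to 0.068. HSPD1 differed by 0.085, from -0.12 to 0.29. The differences of the 13 genes ran from -0.20 to 0.14, and the widest interval was that of FKBP5, from -0.34 to 0.46. Apart from that of BAG3, the intervals include 0, and differences within them could not be told from 0 with 3 arrays a group. The intervals are not adjusted for the number of genes, and BAG3 did not pass after adjustment.

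**Figure D3:**
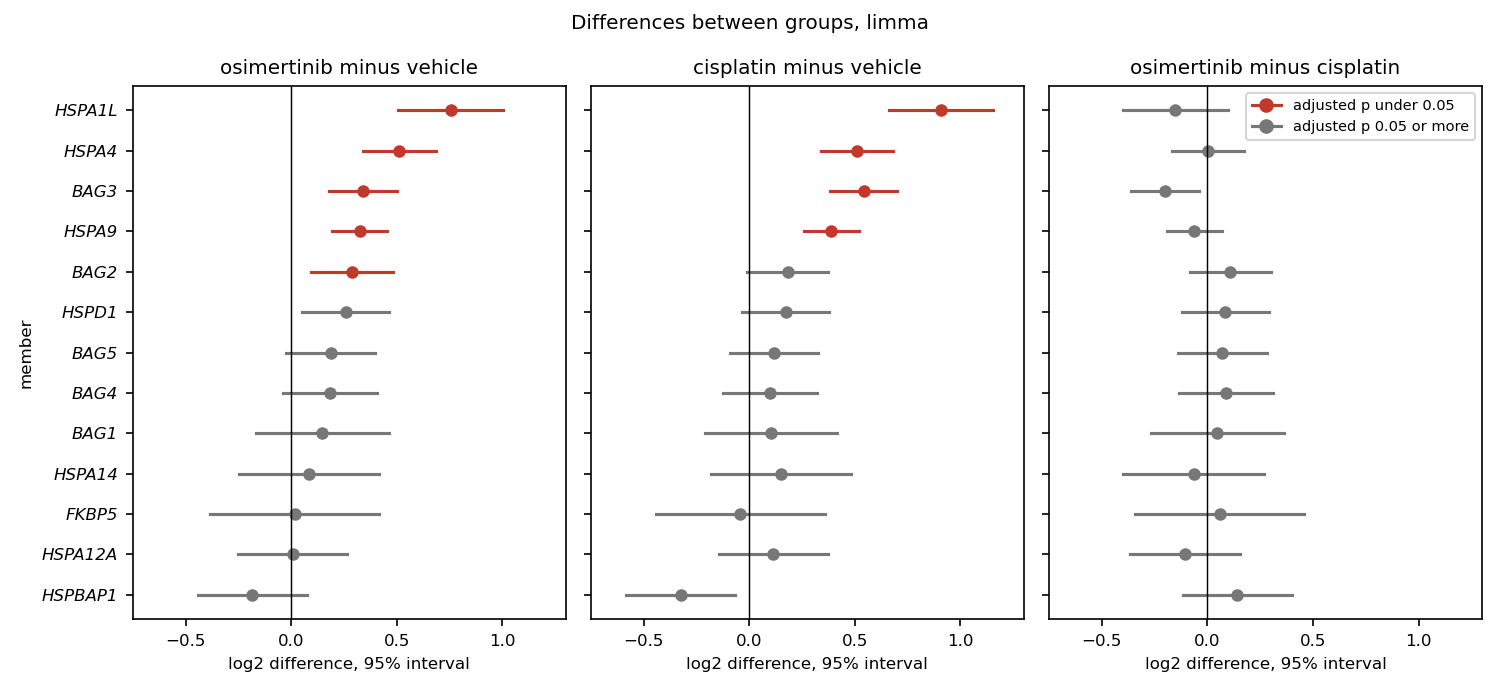
Log2 difference of the 13 genes above the level limit (points) with the 95% interval from limma (lines), for osimertinib minus vehicle, cisplatin minus vehicle and osimertinib minus cisplatin; red marks an adjusted p under 0.05. Red points stand right of 0 for 5 genes with osimertinib and 4 with cisplatin, and none is red between the drugs.

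Promoter sequences were read from RefSeq (GRCh38.p14) for 18 of the 24 genes, 11 of them above the level limit, as the 250 bases before each annotated start. Each was searched for pairs of inverted heat shock units, GAANNTTC and TTCNNGAA, which read alike on both strands, and for the longer forms GAANNTTCNNGAA and TTCNNGAANNTTC, which contain the pairs. Letters for a pair were present in 6 of the 18 genes, beside 14.0% of the 27305 genes in the table, and for a longer form in 2, beside 0.557%. Among the 4 genes that rose with both drugs, HSPA1L held 1 pair, and BAG3, HSPA4 and HSPA9 held none in this window. BAG2 held 1 pair. Windows are shown for the 3 genes of largest rise, BAG2, and the 2 genes with a longer form, HSPD1 and HSPA6, with the matched letters in capitals, all 5′ to 3′ on the strand of the gene.

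HSPA1L, chr6:31815284-31815533, minus strand, with the pair beginning 161 bases before the start: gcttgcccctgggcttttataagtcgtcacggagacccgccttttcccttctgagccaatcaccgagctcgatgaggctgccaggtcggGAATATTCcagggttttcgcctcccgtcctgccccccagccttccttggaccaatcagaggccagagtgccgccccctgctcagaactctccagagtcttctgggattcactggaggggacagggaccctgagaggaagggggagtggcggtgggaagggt
HSPA4, chr5:133051763-133052012, plus strand: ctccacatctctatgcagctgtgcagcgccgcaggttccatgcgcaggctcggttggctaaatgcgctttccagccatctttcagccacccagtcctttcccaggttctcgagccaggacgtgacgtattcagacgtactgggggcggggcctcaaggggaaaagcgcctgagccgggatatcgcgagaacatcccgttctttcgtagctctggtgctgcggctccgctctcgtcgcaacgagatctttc
BAG3, chr10:119651130-119651379, plus strand: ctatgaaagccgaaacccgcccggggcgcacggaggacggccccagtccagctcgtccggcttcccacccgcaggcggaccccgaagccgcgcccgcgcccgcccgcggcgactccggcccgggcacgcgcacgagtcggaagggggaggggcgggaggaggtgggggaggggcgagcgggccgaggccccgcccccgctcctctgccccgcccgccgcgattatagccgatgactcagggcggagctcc
BAG2, chr6:57172076-57172325, plus strand, with the pair beginning 124 bases before the start: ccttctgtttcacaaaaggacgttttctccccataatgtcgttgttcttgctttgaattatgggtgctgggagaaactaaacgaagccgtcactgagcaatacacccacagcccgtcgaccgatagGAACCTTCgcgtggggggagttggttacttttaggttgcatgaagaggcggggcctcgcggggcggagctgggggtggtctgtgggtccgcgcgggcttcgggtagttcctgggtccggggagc
HSPD1, chr2:197499841-197500090, minus strand, before the more downstream of its 2 annotated starts, with the first pair 245 bases before it: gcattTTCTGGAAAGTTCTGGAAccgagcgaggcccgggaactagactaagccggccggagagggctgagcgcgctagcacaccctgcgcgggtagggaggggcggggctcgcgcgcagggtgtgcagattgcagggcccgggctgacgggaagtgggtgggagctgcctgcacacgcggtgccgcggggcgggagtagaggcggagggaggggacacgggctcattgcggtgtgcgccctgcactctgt
HSPA6, chr1:161524290-161524539, plus strand, with pairs beginning 180, 74 and 69 bases before the start: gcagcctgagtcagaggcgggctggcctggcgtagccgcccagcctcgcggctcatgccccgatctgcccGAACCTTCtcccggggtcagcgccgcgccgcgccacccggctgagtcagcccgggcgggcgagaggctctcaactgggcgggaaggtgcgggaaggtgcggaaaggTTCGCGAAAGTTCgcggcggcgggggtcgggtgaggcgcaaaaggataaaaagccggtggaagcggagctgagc

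The HSPA1L window shares 241 of its 250 bases, on the opposite strand, with that of HSPA1A, so that its pair stands between these genes. Of the 5 excluded inducible heat shock genes, 4 held a pair and 0 a longer form. Of the genes with the longer form, HSPD1 was not called and HSPA6 was below the level limit. The letters mark no tested binding site, and windows farther out were not searched.

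Other folding genes were set beside these from 6 lists of 82 genes in all, of which 60 were named and 53 tested. With osimertinib 15 rose and 3 fell, where 16.9% of all tested genes rose and 13.7% fell. With cisplatin 13 rose and 7 fell, where 16.5% rose and 14.5% fell, and the number that fell is near that share. Between the drugs 0 differed, where 0.766% of all tested genes were higher and 0.981% lower with osimertinib. The list medians given next stand beside medians of 0.037 and 0.032 over all tested genes. Among partners of HSP90 and HSP70 outside the families above, 3 of 9 rose and 0 fell with osimertinib, and 3 rose and 1 fell with cisplatin (medians 0.11 and 0.11). STIP1, the adaptor that passes clients from HSP70 to HSP90, rose by 0.35 and 0.46 with osimertinib and cisplatin, PTGES3, the HSP90 cofactor p23, by 0.55 and 0.47, and RPAP3, a part of the R2TP complex that works with HSP90, by 0.53 and 0.35, while the HSP90-binding CHORDC1 fell by 0.39 with cisplatin. With the mean over all rows of the gene, PTGES3 stood at 0.23 with cisplatin (adjusted p = 0.0872). The means of CHORDC1 were 4.23 with osimertinib and 4.12 with cisplatin, both below the level limit, and 4.51 with vehicle. It thus reached the limit only through its vehicle level. The call of CHORDC1 ended under 7 of the alternatives tried (adjusted p = 0.0512 to 0.137), among them those without cisplatin replicate 1 or 2 and without vehicle replicate 1 or 3. Of 8 mitochondrial folding and protease genes, 3 rose and 0 fell with each drug (medians 0.32 and 0.40), and these act in the same compartment as HSPA9 and HSPD1: the disaggregase CLPB (0.54 and 0.48), the unfoldase CLPX (0.50 and 0.45) and the mitochondrial HSP90 TRAP1 (0.53 and 0.55). TIMM44, of the same list, differed by 0.40 and 0.44 and was not called (limma adjusted p = 0.11 and 0.0775). After further quantile normalization TIMM44 passed with both drugs (adjusted p = 0.0339 and 0.0219).

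In the endoplasmic reticulum 4 of 11 genes rose and 0 fell with each drug, beside 16.9% and 16.5% of all tested genes that rose (medians 0.096 and 0.13). SEL1L, a part of the machinery that degrades misfolded proteins there, rose by 0.46 and 0.45, the chaperone cofactor SDF2L1 by 0.47 and 0.54, and HYOU1, the HSP110 relative of that compartment, by 0.26 and 0.32. The fourth gene differed between the drugs' lists. With osimertinib it was CANX, a lectin chaperone, at 0.16 (adjusted p = 0.0118), whose call ended under 3 alternatives (adjusted p = 0.0608 to 0.109), with a difference of 0.091 after further quantile normalization. With cisplatin it was XBP1, a transcription factor of the unfolded protein response, at 0.32 (adjusted p = 0.0314, and 0.0553 with no level limit). CANX differed by 0.11 with cisplatin (adjusted p = 0.0570), and XBP1 by 0.16 with osimertinib (adjusted p = 0.259). Neither was shown to differ between the drugs (0.045 and -0.16, adjusted p = 0.771 and 0.635). Of the cyclophilins, the other family of immunophilins, 3 of 15 rose and 2 fell with osimertinib, near the shares over all tested genes (16.9% and 13.7%), and 1 rose and 4 fell with cisplatin, beside 16.5% and 14.5% (medians -0.030 and -0.048). With no level limit the osimertinib call of PPIC (adjusted p = 0.0469) ended at 0.0855, and the cisplatin call of PPWD1 (adjusted p = 0.0350) at 0.0757; XBP1, PPIC and PPWD1 are named here after their values were seen. The mitochondrial PPIF rose by 0.68 and 0.94, and NKTR, a large cyclophilin, fell by 0.97 and 1.16 and the spliceosomal PPIH by 0.55 and 0.58. PPIA fell with cisplatin (-0.52, limma adjusted p = 0.00237) and differed by -0.28 with osimertinib (adjusted p = 0.0683). With each array centred on its median, PPIA passed with osimertinib too (adjusted p = 0.0249). Of 7 prefoldin genes and chaperonin partners, 0 rose with either drug, beside 16.9% and 16.5% of all tested genes. With osimertinib 1 fell, near the share of 13.7%, and with cisplatin 2, beside 14.5% (medians -0.034 and -0.26). PFDN2 differed by 0.22 and 0.35 (adjusted p = 0.22 and 0.0524), and PFDN1 by -0.21 and -0.26 (adjusted p = 0.119 and 0.0521). With cisplatin PFDN2 passed after further quantile normalization (adjusted p = 0.0218), and PFDN1 with each array centred on its median (adjusted p = 0.0206). PDCL3, a phosducin-like protein that binds the cytosolic chaperonin, fell by 1.11 and 0.88, and the prefoldin subunit PFDN5 differed by -0.21 with osimertinib (adjusted p = 0.0588) and fell by 0.32 with cisplatin. The means of PDCL3 were 3.96 with osimertinib and 4.19 with cisplatin, both below the level limit, and 5.07 with vehicle. It thus reached the limit only through its vehicle level. With no level limit its limma adjusted p was 0.0308 with osimertinib and 0.0816 with cisplatin. The cisplatin call of PDCL3 ended under 8 alternatives (adjusted p = 0.0545 to 0.148), among them those without cisplatin replicate 2 or 3 and without vehicle replicate 1, where the difference was -0.52, or 3. HSF1 itself rose by 0.41 and 0.34, and HSBP1, which binds it, by 0.52 and 0.53; the third tested gene of that list, HSF4, differed by -0.21 and -0.23 and was not called.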

How the data were processed

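Total RNA of 9 THP-1 cultures was hybridised to 9 arrays. Per the labels, a service provider made gene-level values with standard Affymetrix pipelines, and the submitters' processing notes name Affymetrix Power Tools; the steps of background correction and summarization are not stated in the labels. Since they range from 0.65 to 13.2, the deposited values were taken as log2; in another base every fold would change. The values were taken as already normalized between arrays, so differences are read as relative to the bulk of transcripts.

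Of 53617 rows, 16098 were named with 1 gene by the platform annotation, 0 with several, and 37519 were unnamed. Matching gene identifiers to RefSeq changed 0 symbols, where a gene without a match would have kept its annotated symbol. The brightest row per gene was kept, giving 14884 genes, of which 7442 reached the median level and were tested. Tests were made with limma 3.58.1 under R 4.3.3, with 3 group means (6 residual degrees of freedom), variance trend and robust fitting, checked on simulated data. p-values are two-sided and adjusted over all tested genes; intervals are 95% and not adjusted. Differences of genes below the limit come from the same fit on all named genes.

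Genes named were the largest called rises and falls under each drug whose arrays do not overlap those of vehicle, up to 4 per family and per list by the smallest F-test p, and fixed members; the rest are given to account for every member. HSPA4L was among the excluded genes fixed for naming. The members and lists were chosen with earlier results of these data known. Alternatives were quantile normalization on top, median centring, no filter, an upper-quartile filter, the mean over rows, no trend or robust fitting, 2-group fits, a replicate block and leaving out each array.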

Additional observations from a re-analysis of the deposited data

How the results depend on the processing

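Of 9 called differences, 8 stayed called in the direction given under every alternative tried in which the gene was tested, the exception being BAG2 with osimertinib, and 0 of the 39 differences of the 13 genes changed direction across a call. The number higher with osimertinib was 5, and 8 with quantile normalization on top, where BAG4, BAG5 and HSPD1 were added; leaving out 1 array gave 4 to 6. The number higher with cisplatin was 4, 3 to 5 under the other settings and 4 without any 1 array. The number lower with cisplatin was 0, and 1 (HSPBAP1) with each array centred on its median, 1 without variance trend and robust fitting, and 0 to 1 with an array left out. Between the drugs it was 0 each way throughout. Over all tested genes, 55.1% of calls with osimertinib and 53.2% with cisplatin were higher; quantile normalization on top gave 68.3% and 66.9%, and centring on the median 48.6% and 47.1%. Of the 44 called differences of 28 other genes (XBP1, PPIC and PPWD1 not among them), 40 kept their call under every alternative in which they were tested, and those of PTGES3, CHORDC1 and PDCL3 with cisplatin and of CANX with osimertinib did not. Of 9 same-number pairs of arrays 1 deviated together at a correlation over 0.1 (range -0.227 to 0.126), so the replicate numbers were not taken as pairs; with the replicate block 5 members were higher with osimertinib and 4 with cisplatin, and 0 differed between the drugs. Levels near or below the limit may rest on little signal, since background was not measured here.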

Other observations

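Exact repeats occur in the values of these genes. Of the 24, 12 had a value that stood on more than 1 of the 9 arrays, among them 4 of the 13 above the level limit: BAG4, BAG5, HSPA12A and HSPBAP1. DNAJC27-AS1 held 2.98 on 4 arrays, namely osimertinib replicate 3, cisplatin replicates 2 and 3 and vehicle replicate 3, and HSPB8 held 2.18 on 4 arrays, cisplatin replicates 1 and 3 and vehicle replicates 1 and 3. FKBP7 held 3.14 on 3 arrays, while its first osimertinib array stood at 3.90. The 4 genes that rose with both drugs had 0 such repeats, as was so for most of the 13 above the limit.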
